A study of Mus musculus with 14 samples.

Results

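The genes described here are 6 Hox genes (Hoxa3, Hoxa5, Hoxa7, Hoxa9, Hoxa10 and Hoxb4), Meis1, and the Pbx genes Pbx2 and Pbx3, 9 of the 50686 genes counted. They were chosen by name, and each symbol matched 1 Ensembl gene. Expression was measured in 14 RNA libraries from mouse HPC-LSK cells, haematopoietic stem and progenitor cell lines of C57BL/6N background. The 4 groups were Cdk6 wild type (WT) untransformed (n = 4), Cdk6 knockout (KO) untransformed (n = 3), WT transformed with BCR-ABL p210 (n = 3) and KO transformed with BCR-ABL p210 (n = 4). The culture medium of the untransformed lines held IL-6 at 12.5 ng/ml and SCF at 2%. The p210 lines had no added cytokine per the protocol, although their descriptions include the letters SCF, which were not resolved here. Transformation and medium therefore cannot be told apart. The labels do not say whether replicates were separate derivations or cultures of 1 line, so the p-values cover the spread among these libraries, which may be technical.

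Hox genes encode homeodomain transcription factors that lie in 4 clusters, and genes of the Hoxa and Hoxb clusters are transcribed in blood stem and progenitor cells and shut down as these cells mature. HOX proteins bind DNA weakly alone. PBX and MEIS proteins, homeodomain factors of the TALE class, bind DNA together with them, and the HOXA9, MEIS1 and PBX3 combination is known for sustaining self-renewal in acute leukaemia.

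The 5 Hoxa genes had counts in all 7 untransformed libraries and were at or below 3 counts in all 4 KO p210 libraries. They were also at 0 or 1 count in 1 of the 3 WT p210 libraries, and were above 3 counts in the other two. Meis1 fell with p210 in KO cells but stayed detected, Pbx2 kept a steady level, and Pbx3 was lower in KO than in WT untransformed cells.

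Total counts ranged from 20270348 to 50303271 per library. Levels are given as CPM, counts relative to the scaled library size. A gene was taken as below detection in a library at 3 counts or fewer, which stands for 0.0566 to 0.157 CPM. These floors and the intervals below cover counting error only. All 9 genes passed the filter on low counts among 14512 genes tested, so the filter removed none of them from the fit to all libraries. Cdk6, the deleted kinase gene, was at 970 to 1305 CPM in WT untransformed, 236 to 271 CPM in KO untransformed and 576 to 606 CPM in WT p210 libraries. Cdk6 was at 578 CPM in the library labelled KO p210 replicate 2, within the WT p210 range, and at 163 to 326 CPM in the rest of that group. Every KO library held Cdk6 counts, and Cdk6 was not called lower in KO than in WT p210 cells (log2 fold change -0.86, edgeR adjusted p = 0.147). The Cdk6 level of the library labelled KO p210 replicate 2 goes against its label, but its genotype was not tested. The calls of the 9 genes against KO untransformed and WT p210 cells, and the count of KO lines that lost Hoxa9, are given also without that library. Other results that use that library, such as those of marker genes and of further genes, are not. WT untransformed replicate 3 stood apart in lineage genes, with 777 CPM of the mast cell protease gene Cma1. All 4 progenitor markers were detected in every group, with Cd34 at 368 to 1367 CPM over all libraries. Kit, the SCF receptor and a marker of the LSK gate, was at 247 to 471 CPM in untransformed and 14.9 to 59.1 CPM in p210 libraries. Ly6a, which encodes Sca-1, the other positive marker of that gate, was at 13.6 to 111.8 CPM in WT untransformed, 26.4 to 42.2 in KO untransformed, 10.3 to 13.9 in WT p210 and 0.553 to 29.1 CPM in KO p210 libraries. Summed neutrophil and monocyte markers (5 of 5 detected) were at 248 to 8409 CPM in WT untransformed, 19710 to 27530 in KO untransformed, 1292 to 4657 in WT p210 and 5924 to 10880 in KO p210 libraries. Summed mast cell and basophil markers (5 of 5 detected) were at 562 to 2745, 1913 to 2009, 2957 to 12340 and 6813 to 9793 CPM in the same order. Summed megakaryocyte markers (4 of 4 detected) were at 2172 to 5685, 954 to 1560, 1531 to 2658 and 1228 to 1832 CPM, and summed erythroid markers (3 of 4 detected in untransformed, 4 of 4 in p210 groups) at 16.2 to 51.5, 6.29 to 10.9, 0.812 to 9.32 and 0.320 to 2.56 CPM, in that order again. The mast cell and basophil markers did not all move together with p210. Cpa3 and Mcpt8 were called higher in both genotypes and Prss34 was not called. Mean Cma1 went from 199 to 1.65 CPM in WT and from 6.83 to 0.294 CPM in KO. Mean Ms4a2 went from 186 to 114 CPM in WT and from 52.6 to 166 CPM in KO. Neither did the neutrophil and monocyte markers all move together with p210. In WT, Fcgr3 was called higher and Mpo lower, while Elane, Lyz2 and Csf1r were not called. In KO, Mpo and Csf1r were called lower, while Elane, Lyz2 and Fcgr3 were not called. In untransformed cells the megakaryocyte markers Itga2b, Vwf and Pf4 were called lower in KO than in WT. In p210 cells Gata1 (-4.41 ± 0.82, adjusted p = 0.0125), Gp9 (-4.09 ± 0.90, adjusted p = 0.0267) and Epor (-3.60 ± 0.88, adjusted p = 0.0405) were lower in KO, and the same 3 fell with p210 in both genotypes. The Gata1 ranges of KO and WT p210 libraries overlapped. The erythroid markers Klf1 (0.160 CPM in WT, 0.286 in KO) and Hba-a1 (0.105 in WT, 0.687 in KO) went the other way in mean p210 level, with overlapping ranges. The part of these cell types in the Hox, Meis1 and Pbx3 results was not tested. Of 5 lymphoid markers listed, only 1, Il7r, was above 3 counts in any library. Mean Il7r was at 5.38 CPM in WT untransformed, 26.2 in KO untransformed, 18.8 in WT p210 and 23.3 CPM in KO p210 libraries. The T cell marker Cd3e had no count in any library. In bulk RNA, fewer cells that express a gene and less RNA per cell cannot be told apart.

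The 5 Hoxa genes lie on the minus strand of chromosome 6 (GRCm38). Hoxa3 (ENSMUSG00000079560.13) spans 52169062 to 52213336, Hoxa5 (ENSMUSG00000038253.6) 52201754 to 52204587, and Hoxa7 (ENSMUSG00000038236.8) 52214491 to 52221854. Hoxa9 (ENSMUSG00000038227.15) spans 52223100 to 52231089 and Hoxa10 (ENSMUSG00000000938.11) 52231197 to 52240854. Hoxb4 (ENSMUSG00000038692.8) lies on the plus strand of chromosome 11 at 96318267 to 96321638, and Meis1 (ENSMUSG00000020160.18) on its minus strand at 18879817 to 19018985. Pbx2 (ENSMUSG00000034673.14) lies on the plus strand of chromosome 17 at 34591266 to 34597400. Pbx3 (ENSMUSG00000038718.15) lies on the minus strand of chromosome 2 at 34171457 to 34373142. Reads that overlap exons of another gene on the same strand may be lost from the counts, and such exons make up 8.0% of Hoxa3, 1.5% of Hoxa9, 9.8% of Meis1 and 6.2% of Pbx2.

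The 250 bases upstream of the RefSeq start sites (GRCm38.p6) are shown for 4 genes that mark the range of responses. Hoxa9 and Hoxa5 were both below detection in the KO p210 libraries and in WT p210 replicate 3. Meis1 fell but stayed detected, and Pbx2 was steady. Capitals mark a CCAAT box (CCAAT, or ATTGG on the other strand). The Hoxa9 window is chr6:52227371-52227620 on the minus strand, inside the longer annotated Hoxa9 gene, in none of its exons. The Hoxa5 window is chr6:52204588-52204837 on the minus strand, within the longer annotated Hoxa3 gene. The Meis1 window is chr11:19018986-19019219 on the minus strand, printed without its exonic bases. The Pbx2 window is chr17:34592009-34592258 on the plus strand, inside the annotated Pbx2 gene.
Hoxa9: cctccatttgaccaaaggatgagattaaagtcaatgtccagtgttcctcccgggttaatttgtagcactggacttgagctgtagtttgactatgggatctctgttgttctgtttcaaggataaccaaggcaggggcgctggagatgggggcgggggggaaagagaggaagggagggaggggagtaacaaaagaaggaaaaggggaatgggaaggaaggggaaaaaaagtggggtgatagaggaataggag
Hoxa5: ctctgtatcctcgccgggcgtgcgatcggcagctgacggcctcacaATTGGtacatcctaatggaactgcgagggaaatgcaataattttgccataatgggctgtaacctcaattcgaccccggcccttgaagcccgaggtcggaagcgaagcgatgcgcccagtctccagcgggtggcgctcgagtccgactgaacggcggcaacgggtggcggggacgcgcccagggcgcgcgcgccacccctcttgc
Meis1: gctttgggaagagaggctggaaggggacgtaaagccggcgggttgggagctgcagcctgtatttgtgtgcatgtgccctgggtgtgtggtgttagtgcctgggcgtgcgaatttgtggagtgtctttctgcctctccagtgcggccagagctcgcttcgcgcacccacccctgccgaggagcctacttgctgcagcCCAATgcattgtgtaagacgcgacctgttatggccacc
Pbx2: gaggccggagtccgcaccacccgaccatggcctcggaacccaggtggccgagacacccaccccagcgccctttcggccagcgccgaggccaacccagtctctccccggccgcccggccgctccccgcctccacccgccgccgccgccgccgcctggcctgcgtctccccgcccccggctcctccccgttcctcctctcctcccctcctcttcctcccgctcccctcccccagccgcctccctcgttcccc

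The windows differed in CpG pairs, with 3 in Hoxa9, 28 in Hoxa5, 13 in the full Meis1 window and 27 in Pbx2, against a median of 6 over 32851 RefSeq windows of the same length. Windows were found for 8 of the 9 genes. The motifs searched, on both strands, were TGACAG (the MEIS core), TGATTNAT (a PBX and HOX site), TAATTA (a homeodomain core), CCAAT and TATAAA. Over all windows, TGACAG was present in 15.9%, TGATTNAT in 2.8%, TAATTA in 4.8%, CCAAT in 33.8% and TATAAA in 12.4%. Among the windows of these genes TGACAG was found in 1 (Hoxa3), CCAAT in 3 (Hoxa5, Hoxa10 and Meis1) and TATAAA in 1 (Hoxa10). The other two motifs had no match there. These windows number 9, since Hoxa10 has 2. Such matches describe letters and not binding.

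Hoxa9, the Hox gene most closely tied to myeloid leukaemia, was at 62.4, 29.6, 17.2 and 19.5 CPM in WT untransformed replicates 1 to 4. It was at 8.54, 6.23 and 12.2 CPM in the KO untransformed libraries, 81.7, 8.03 and 0 CPM in the WT p210 libraries, and 0, 0.0386, 0.0582 and 0.0390 CPM in the KO p210 libraries. The KO p210 values rest on 4 counts in all. WT p210 replicate 1 was thus the highest of all 14 libraries and WT p210 replicate 3 had no Hoxa9 count.

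Hoxa7, its neighbour in the cluster, was at 24.2, 49.0, 32.2 and 40.2 CPM in WT untransformed, 13.2, 9.64 and 31.7 CPM in KO untransformed, 9.95, 10.6 and 0.0508 CPM in WT p210, and 0, 0.0772, 0.0582 and 0.0390 CPM in KO p210 libraries. The KO untransformed range overlapped that of WT untransformed, through KO replicate 3. Every p210 library was below every untransformed library of the same genotype.

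Hoxa5, a gene of the middle of the cluster, was at 5.97, 5.70, 4.48 and 6.77 CPM in WT untransformed, 2.14, 1.69 and 4.87 CPM in KO untransformed, 2.92, 1.95 and 0.0508 CPM in WT p210, and 0.0523, 0.0772, 0 and 0 CPM in KO p210 libraries. Hoxa3 was at 1.44, 1.47, 1.46 and 2.26 CPM, then 0.545, 0.510 and 1.36 CPM, then 1.48, 0.672 and 0 CPM in the same groups, and had no count in any KO p210 library. Hoxa10, a gene of the 5′ side of the cluster, was low throughout, at 0.439 to 1.11 CPM in WT untransformed and 0.118 to 0.472 CPM in KO untransformed libraries. It was at 0.691, 0.134 and 0 CPM in WT p210 libraries and had no count in any KO p210 library. KO untransformed replicates 1 and 2 held 3 Hoxa10 counts each and were below detection by the rule used here. The Hoxa genes other than Hoxa10 were detected in all 7 untransformed libraries.

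Hoxb4, known for expanding haematopoietic stem cells when overexpressed, was at 3.32, 2.98, 0.934 and 2.31 CPM in WT untransformed and 3.55, 3.45 and 2.99 CPM in KO untransformed libraries. It was at 0.691, 0.773 and 0.102 CPM in WT p210 and 0.575, 0, 0 and 0.0390 CPM in KO p210 libraries. All p210 values lay below all untransformed values. In KO p210, 11 of the 12 Hoxb4 counts came from replicate 1, the only library of that group above the floor.

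Meis1, which encodes the TALE partner that stabilises HOXA9 on DNA, was at 121.7, 165, 187 and 191.5 CPM in WT untransformed and 91.4, 63.4 and 77.1 CPM in KO untransformed libraries, with no overlap. It was at 110.9, 93.5 and 7.16 CPM in WT p210 and 20.9, 12.97, 16.4 and 18.6 CPM in KO p210 libraries. WT p210 replicate 3, the library with almost no Hoxa counts, had the lowest Meis1 level of all, on 141 counts.

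Pbx2, a broadly transcribed PBX gene, ranged from 66.4 to 76.0 CPM in WT untransformed, 80.1 to 85.5 CPM in KO untransformed, 68.9 to 77.3 CPM in WT p210 and 79.0 to 91.5 CPM in KO p210 libraries. Its spread over the 14 libraries was 0.46 on the log2 CPM scale, against 4.73 for Meis1 and 10.31 for Hoxa9. Pbx3, the partner most often named with HOXA9 in leukaemia, was at 17.2, 25.3, 35.3 and 36.8 CPM in WT untransformed and 12.1, 11.3 and 11.9 CPM in KO untransformed libraries. It was at 17.0, 28.2 and 31.1 CPM in WT p210 and 12.0, 18.7, 14.8 and 14.2 CPM in KO p210 libraries.

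**Figure D1:**
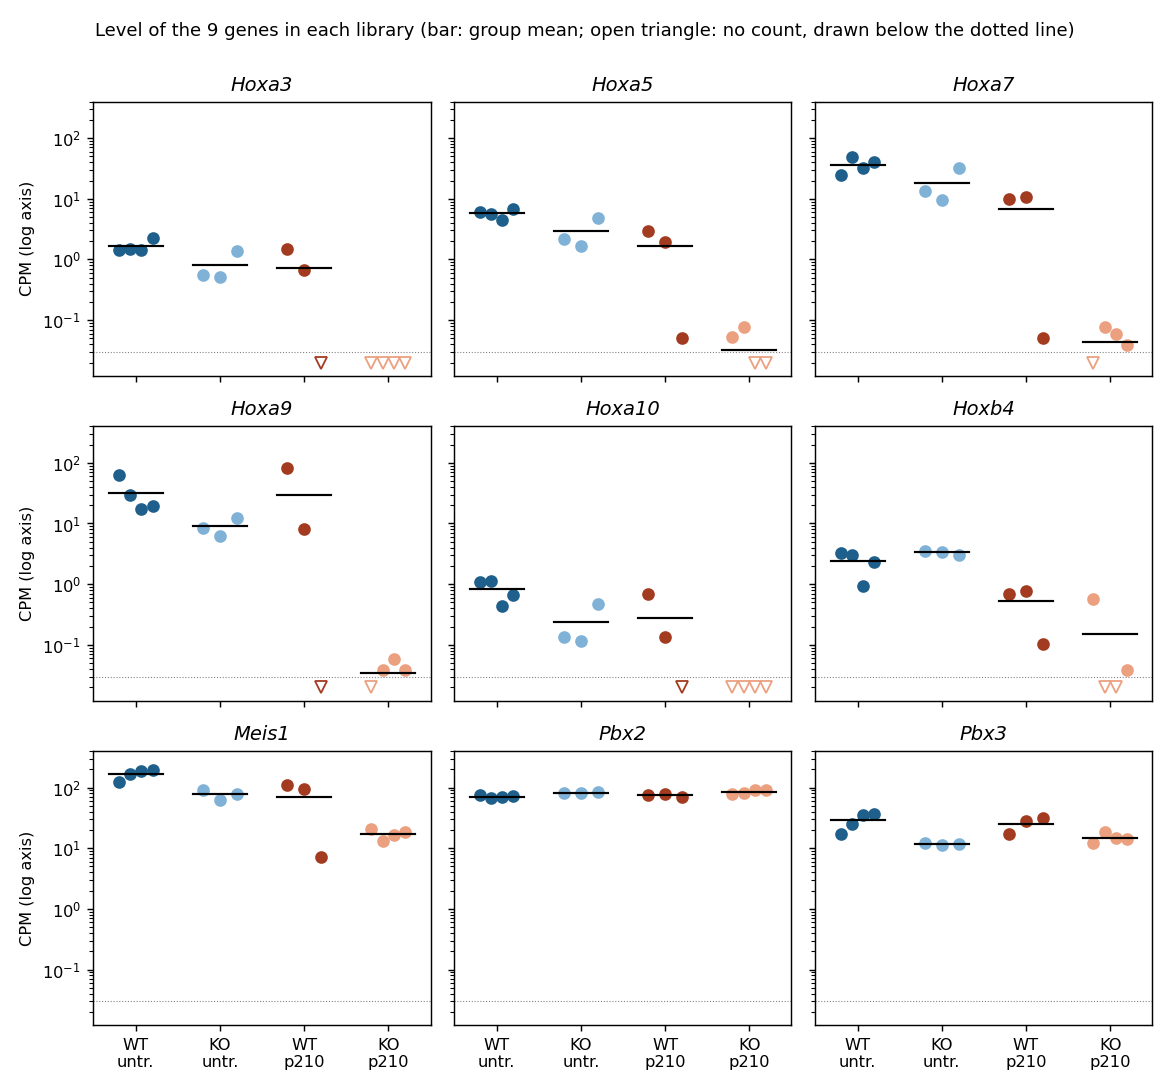
CPM (log axis) of the 9 genes in each of the 14 libraries by genotype and state (untr., untransformed), with points for libraries, bars for group means and open triangles for libraries with no count. The 5 Hoxa genes are at 0 to 0.0772 CPM in all KO p210 libraries and at 0 to 0.0508 CPM in WT p210 replicate 3, while Pbx2 stays between 66.4 and 91.5 CPM.

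On a per-length scale (TPM), the order in WT untransformed cells was Pbx2 at 72.4 ± 3.79 (SD, n = 4), Meis1 at 58.6 ± 11.5, Hoxa7 at 47.0 ± 13.9, Hoxa9 at 21.3 ± 13.7, Pbx3 at 17.4 ± 5.62, Hoxa5 at 11.3 ± 1.83, Hoxb4 at 3.45 ± 1.51, Hoxa3 at 1.02 ± 0.245 and Hoxa10 at 0.930 ± 0.372 TPM. Only the neighbours Pbx2 and Meis1, and Hoxa5 and Hoxb4, had ranges that did not overlap. Pbx2 was also first in the other 3 groups, apart from the gene in second place. In KO p210 cells the second place went to Pbx3 at 7.36 ± 1.53 TPM, the third to Meis1 at 4.90 ± 0.851 TPM, and the 6 Hox genes were at 0 to 0.176 TPM on average (n = 4).

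The first comparison asks how Cdk6 loss bears on these genes before transformation. Of the 9 genes, 1 was called at an adjusted p under 0.05 in KO against WT untransformed cells, where 15.2% of all genes tested were called, 8.73% higher and 6.5% lower. Pbx3 was lower in KO, by a log2 fold change of -1.28 ± 0.27 (SE; edgeR quasi-likelihood test, Benjamini-Hochberg adjusted p = 0.0128), and every KO library lay below every WT library. The median log2 fold change of the 9 genes was -1.01, against -0.02 for all genes. The other 6 genes with negative values include -1.83 ± 1.203 for Hoxa9 (adjusted p = 0.316), -1.11 ± 0.60 for Meis1 (adjusted p = 0.222) and -0.997 ± 0.84 for Hoxa7 (adjusted p = 0.442), none of them past the threshold. Groups did not overlap in 4 genes with lower KO values (Hoxa3, Hoxa9, Meis1 and Pbx3), where 18.9% of all genes did so. They did not overlap in 1 gene with higher KO values, Pbx2 (log2 fold change 0.21 ± 0.07, adjusted p = 0.0639), where 20.8% of all genes did so. Meis1 passed without WT p210 replicate 3 (log2 fold change -1.14, adjusted p = 0.00808), a library outside the groups compared. Pbx3 did not pass without KO untransformed replicate 2 (adjusted p = 0.0718), nor within the first code alone (-0.87, adjusted p = 0.172). The second code holds 1 KO untransformed library, assumed to vary like the other groups, and gave -1.63 (adjusted p = 0.232).

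The second comparison follows the genes from untransformed to p210 cells within the KO. Of the 9 genes, 7 fell, the 6 Hox genes and Meis1, where 18.0% of all genes fell, 19.2% rose and 37.2% changed in either direction. The libraries of the 2 states did not overlap in any of the 7, where 23.5% of all genes had such lower values. Each of the 6 Hox genes had at most 12 counts over the KO p210 group and passed the filter through other libraries. The number of Hox genes that fell was therefore largely set by the filter, and no weight is put on it beside the shares of all genes. Pooled Hoxa7 counts went from 2151 to 5, a ratio of 459 (95% exact interval 197 to 1416; edgeR adjusted p = 0.000458). Hoxa9 went from 969 to 4 counts, a ratio of 259 (101 to 951; adjusted p = 0.00574), and Hoxa5 from 338 to 3, a ratio of 120 (40.8 to 586; adjusted p = 0.0011). Hoxa3 went from 94 counts to none, at least 28.1-fold lower when the KO p210 group is set at 3 counts in all (adjusted p = 0.0055), and Hoxa10 from 30 counts to none, at least 8.47-fold lower (adjusted p = 0.0222).

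Hoxb4 went from 318 to 12 counts in the KO, a ratio of 28.3 (16.0 to 55.3; adjusted p = 0.00681). Meis1 fell by 2.17 ± 0.59 on the log2 scale (SE, adjusted p = 0.0137), from 77.3 ± 13.98 CPM (SD, n = 3) to 17.2 ± 3.35 CPM (n = 4). The 2 Pbx genes did not pass, with log2 fold changes of 0.34 ± 0.27 for Pbx3 (adjusted p = 0.343) and 0.06 ± 0.07 for Pbx2 (adjusted p = 0.563). The median log2 fold change of the 9 genes was -4.60 with Hoxa3 and Hoxa10 set at their bounds, and -0.01 for all genes. The same 7 genes passed without the library labelled KO p210 replicate 2. Hoxa10 did not pass without KO untransformed replicate 3 (adjusted p = 0.0859), and the Hoxb4 log2 fold change went from -4.60 to -7.73 without KO p210 replicate 1. With the line (code and letter of the descriptions) as a block, 4 passed, Hoxa5, Hoxa7, Hoxa9 and Hoxb4, and Hoxa3, Hoxa10 and Meis1 did not. Within the first code 5 of the 7 passed, and within the second code, which has 1 KO untransformed library, 3.

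In WT cells none of the 9 genes passed in the same comparison with edgeR, where 39.5% of all genes did (21.9% higher, 17.6% lower), and 1 of them (Hoxa7) had an unadjusted p under 0.05. DESeq2 called 1 gene, Hoxa7, and limma-voom called 5. The log2 fold changes were -2.40 ± 0.90 for Hoxa7 (adjusted p = 0.052), -2.15 ± 1.01 for Hoxb4 (adjusted p = 0.111), -1.79 ± 0.85 for Hoxa5 (adjusted p = 0.114), -1.24 ± 0.60 for Meis1 (adjusted p = 0.122) and -0.10 ± 1.13 for Hoxa9 (adjusted p = 0.955). These 4 genes other than Hoxa9 had p210 libraries that all lay below the untransformed ones, where 21.6% of all genes did so. The median of the 9 genes was -1.24, against 0.02 for all genes. Without WT p210 replicate 3, Hoxa7 (log2 fold change -1.84, adjusted p = 0.014) and Meis1 (-0.72, adjusted p = 0.0334) passed, and the Hoxa9 value was 0.48 (adjusted p = 0.641). Hoxa10 passed without WT p210 replicate 1 (log2 fold change -3.38, adjusted p = 0.0328) and Hoxb4 without KO p210 replicate 1 (adjusted p = 0.0205). Within the first code Hoxa5 and Hoxa7 passed, and within the second code, where WT p210 has replicate 3 alone, Hoxa5, Hoxa7, Hoxa9 and Meis1 passed.

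The WT lines, read from the code and letter of the sample descriptions, differed among themselves. Hoxa9 went from 1390 to 2602 counts in the line of replicate 1, where the ratio of untransformed to p210 CPM was 0.764 (95% exact interval 0.716 to 0.816). It went from 1565 to 239 counts in the line of replicate 2, a ratio of 3.68 (3.21 to 4.23), and from 626 counts to none in the line of replicate 3, at least 113-fold lower when that p210 library is set at 3 counts. Hoxa7 was 2.43-fold lower (2.11 to 2.80) and 4.63-fold lower (4.11 to 5.22) in the first 2 lines, and went from 1174 counts to 1 in that of replicate 3. Meis1 went from 121.7 to 110.9 CPM, from 165 to 93.5 CPM and from 187 to 7.16 CPM in the 3 lines. The line of replicate 3 thus gave the largest Hoxa9, Hoxa7 and Meis1 drops among the WT lines, and its untransformed library is the one that stood apart in lineage genes. All 3 KO lines with both states lost Hoxa9, from 188 counts to 0, from 159 to 1 and from 622 to 1. The second of these holds the library labelled KO p210 replicate 2, whose Cdk6 level goes against its label, and without it 2 of 2 KO lines lost Hoxa9.

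**Figure D2:**
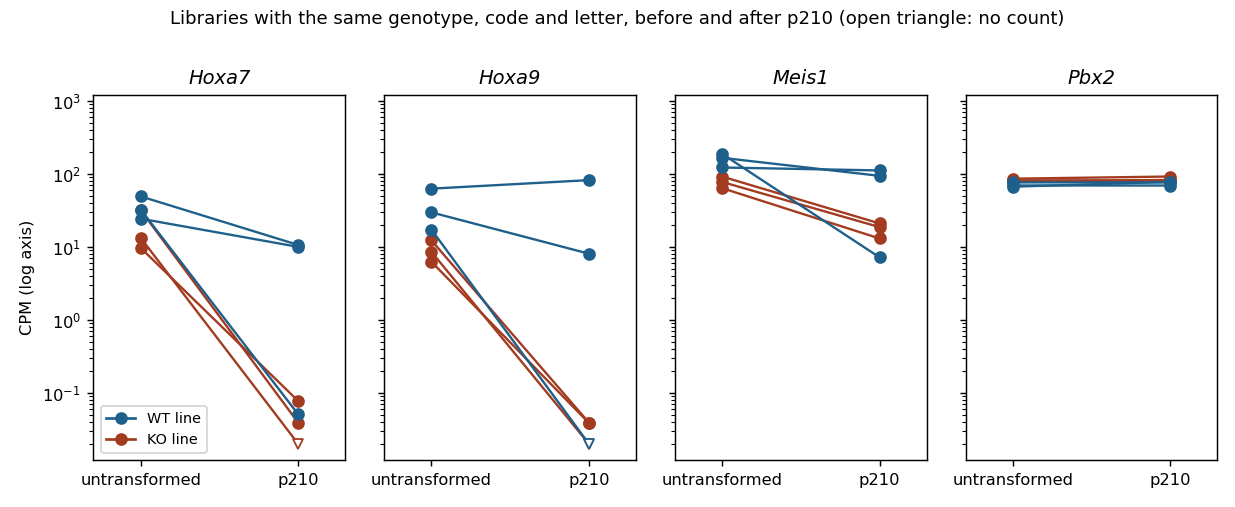
CPM (log axis) of Hoxa7, Hoxa9, Meis1 and Pbx2 in the untransformed and the p210 library of each of 6 lines, joined by genotype colour, with open triangles for no count. Lines were assumed from the code and letter of the descriptions. Hoxa9 is retained in 2 WT lines (81.7 and 8.03 CPM) and absent or at 1 count in the third WT line and the 3 lines labelled KO, 1 of which holds KO p210 replicate 2, whose Cdk6 level goes against its label, while Pbx2 lines are level.

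The third comparison asks how KO and WT cells differ after transformation. Of the 9 genes, 4 were lower in KO p210 cells, where 3.56% of all genes were lower, 0.882% higher and 4.44% called in either direction. These were Hoxa7 (log2 fold change -7.08 ± 1.25, adjusted p = 0.01), Hoxa9 (-9.49 ± 1.81, adjusted p = 0.0136), Hoxa5 (-5.64 ± 1.11, adjusted p = 0.0161) and Hoxa3, which had 67 counts in WT p210 and none in KO p210 (at least 25.1-fold lower, adjusted p = 0.0339). Pooled counts were 2841 against 4 for Hoxa9, 633 against 5 for Hoxa7 and 152 against 3 for Hoxa5. Among p210 libraries, only WT replicates 1 and 2 held more than 3 counts of these 4 genes. They therefore passed the filter with the help of untransformed libraries, and no weight is put on the number of calls beside the shares of all genes. The 2 groups nevertheless overlapped in each of these genes, because WT p210 replicate 3 held 0 or 1 count of each. Pbx2 alone among the 9 genes did not overlap, with higher KO values, where 5.64% of all genes had such higher and 7.7% such lower values. Meis1 (-2.04 ± 0.59, adjusted p = 0.076), Pbx3 (-0.77 ± 0.26, adjusted p = 0.122), Pbx2 (0.21 ± 0.07, adjusted p = 0.129) and Hoxb4 (-1.97 ± 1.10, adjusted p = 0.348) did not pass. Hoxa10, with 26 WT p210 counts and none in KO p210, did not pass either (adjusted p = 0.0792). The median of the 9 genes was -3.27 with Hoxa3 and Hoxa10 at their bounds, against -0.001 for all genes.

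The 4 calls depended on the test and on which libraries entered. DESeq2 called 6 of the 9 genes, the 4 with Hoxa10 and Meis1, limma-voom called none, and the fit with the replicate block called 1, Hoxa7. Without WT p210 replicate 3, 6 genes were called, Hoxa10 (adjusted p = 0.029) and Meis1 (log2 fold change -2.58, adjusted p = 0.000209) beside the 4. Without the library labelled KO p210 replicate 2, Hoxa5 and Hoxa7 were called, and without WT p210 replicate 1, Hoxa7 and Hoxa9. Hoxb4 passed without KO p210 replicate 1 (-5.10, adjusted p = 0.021). With each of the 14 libraries left out in turn, Hoxa7 passed in 14 fits, Hoxa5 and Hoxa9 in 13 and Hoxa3 in 4. The Hoxa counts of KO p210 replicate 2 were like those of its group, at 0 to 2 for each of the 5 Hoxa genes. Within the first code 5 genes were called, and within the second code none, where WT p210 has only replicate 3 and Hoxa9 had a log2 fold change of 3.87 (adjusted p = 0.549).

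The interaction of genotype and transformation, which tests whether the change with p210 differed between KO and WT, called none of the 9 genes with edgeR, where 0.0345% of all genes were called. Hoxa3, Hoxa5, Hoxa7 and Hoxa9 had unadjusted p-values of 0.00834, 0.00545, 0.00192 and 0.00411. The values were -6.08 ± 1.53 for Hoxa7 (adjusted p = 0.171), -7.66 ± 2.16 for Hoxa9 (adjusted p = 0.211) and -0.93 ± 0.82 for Meis1 (adjusted p = 0.633). DESeq2 called 4 genes, Hoxa3, Hoxa5, Hoxa7 and Hoxa9, and edgeR called the same 4 without WT p210 replicate 3, with adjusted p from 0.00839 for Hoxa7 to 0.049 for Hoxa3.

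**Figure D3:**
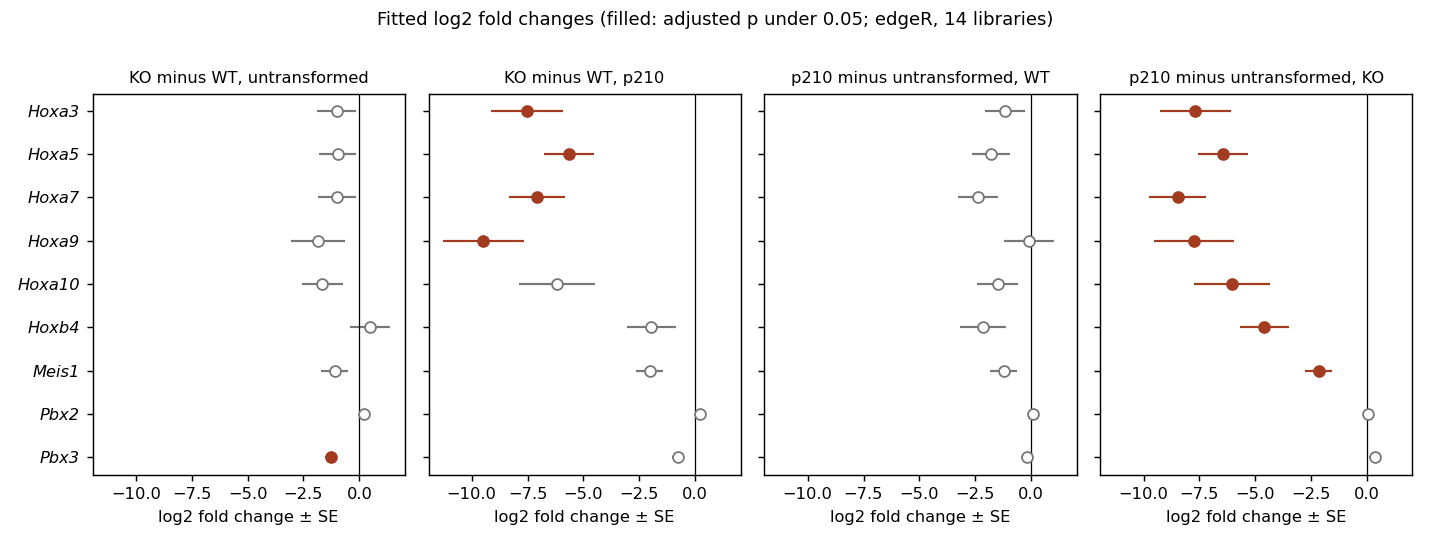
Fitted log2 fold changes with SE bars of the 9 genes in 4 comparisons from 1 edgeR fit to 14 libraries, filled where the adjusted p was under 0.05. The filled genes number 7 in p210 against untransformed KO cells, 4 in KO against WT p210 cells, 1 in KO against WT untransformed cells and none in WT cells. Fitted values of genes with no KO p210 count (Hoxa3, Hoxa10) depend on the model's prior.

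The 9 genes were read beside the rest of the Hox family. Of 38 Hox genes considered, 14 were above 3 counts in at least 1 library, 8 of 10 in cluster a, 4 of 10 in cluster b, 2 of 9 in cluster c and 0 of 9 in cluster d. Between 10 and 12 of these Hox genes were above the floor in each untransformed library, 9, 10 and 0 in WT p210 replicates 1 to 3, and 2, 0, 0 and 1 in the KO p210 libraries. Summed levels of the 10 Hoxa genes were 60.6 to 98.5 CPM in WT untransformed, 19.6 to 53.1 CPM in KO untransformed, 98.1, 21.9 and 0.102 CPM in WT p210, and 0.0780 to 0.193 CPM in KO p210 libraries. Of 32 other Hox genes considered, 5 were tested. All 5 fell with p210 in the KO, where 18.0% of all genes fell (median log2 fold change -5.17 with Hoxa2 and Hoxa4 at their bounds). All 5 also fell in the WT, where 17.6% of all genes did, with Hoxa4 at -3.49 ± 0.85 (adjusted p = 0.011) in the WT. Each of the 5 had at most 5 counts over the KO p210 group and passed the filter mainly through untransformed libraries. These falls were therefore largely set by the filter, and no weight is put on their number beside the shares of all genes. In p210 cells 1 of the 5, Hoxa6, was lower in KO (-4.47 ± 1.12, adjusted p = 0.0435), where 3.56% of all genes were. Hoxa6 too entered that comparison with the help of untransformed libraries. Hoxc6 exceeded the floor in KO untransformed replicate 3 (26 counts) and KO p210 replicate 4 (15 counts), which carry the same code and letter, and had at most 2 counts elsewhere.

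Of 16 non-coding RNAs and flanking genes listed, 6 were tested. Hotairm1, an antisense RNA of the Hoxa cluster, fell with p210 in the KO (56 counts to none, adjusted p = 0.00231). So did Hoxaas3 (76 to 3 counts, adjusted p = 0.00264) and Hoxb3os (adjusted p = 0.0364), where 18.0% of all genes fell. Hoxaas3 also fell in the WT (-2.47 ± 0.79, adjusted p = 0.0269), where 17.6% of all genes fell. These 3 RNAs had at most 3 counts over the KO p210 group and passed the filter through other libraries, so their falls in the KO were largely set by the filter. The flanking genes Skap2, Snx10 and Hibadh were called in none of the 5 comparisons. In KO cells Skap2 was at 247 ± 10.2 CPM (SD, n = 3) untransformed and 249.5 ± 83.5 CPM (n = 4) with p210 (log2 fold change 0.01 ± 0.20, adjusted p = 0.964).

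**Figure D4:**
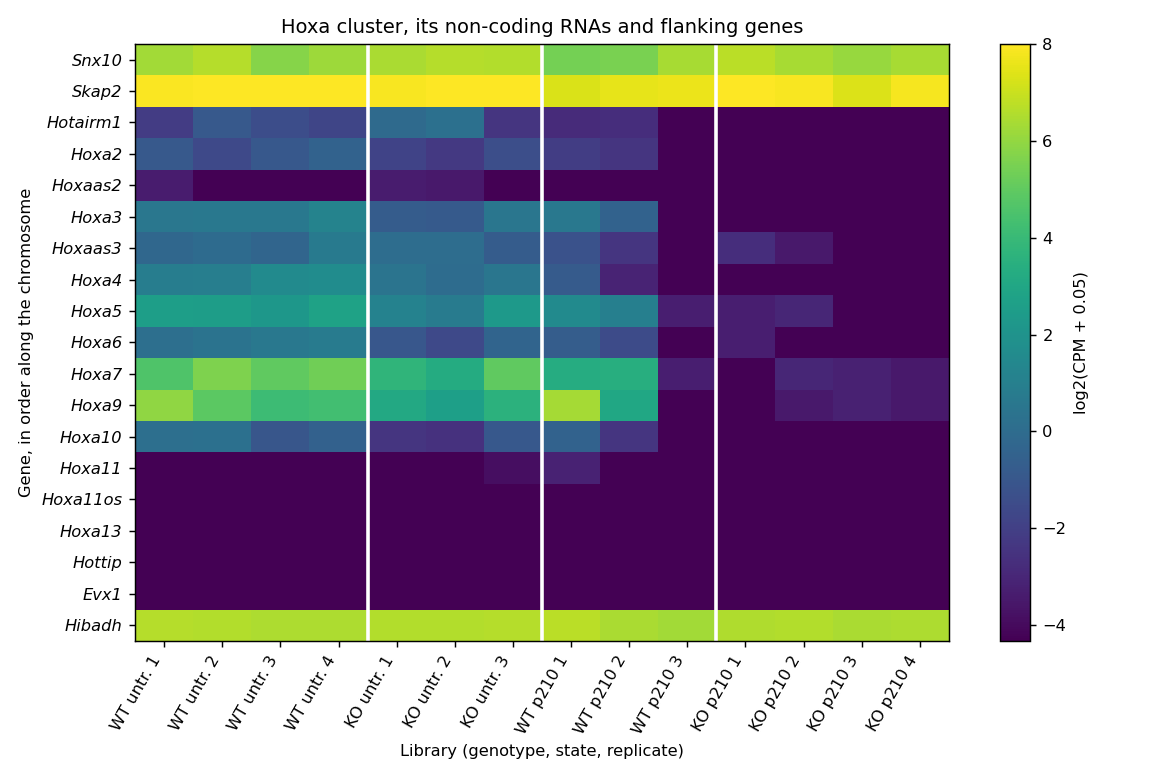
log2(CPM + 0.05) of 10 Hoxa genes, non-coding RNAs of the cluster and flanking genes, in order along the chromosome, in 14 libraries. Rows from Hoxa2 to Hoxa10 are dark in WT p210 replicate 3 and the 4 KO p210 libraries, while Snx10, Skap2 and Hibadh are bright in all 14.

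Of 8 further TALE genes and PBX binders considered, 6 were tested. Tgif2, a TALE repressor, fell with p210 in WT (-5.68 ± 0.74, adjusted p = 0.000167) and in KO (-5.14 ± 0.65, adjusted p = 0.000177). Pbxip1, a PBX-binding protein gene, rose with p210 in WT (1.47 ± 0.19, adjusted p = 0.000183) and in KO (0.81 ± 0.20, adjusted p = 0.00794). Of these 6, 2 were higher and none lower in KO untransformed cells, where 8.73% of all genes were higher and 6.5% lower. With p210, 3 rose and 1 fell in WT (21.9% and 17.6% of all genes), and 1 rose and 1 fell in KO (19.2% and 18.0% of all genes). None of the 6 was called in KO against WT p210 cells with edgeR, where 4.44% of all genes were. The smallest unadjusted edgeR p there was 0.0703 (Pknox1).

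Genes that act upstream of Hox transcription (23 listed, 20 tested) changed by less than 1 log2 unit in every comparison. In KO untransformed cells 2 of the 20 were lower, where 6.5% of all genes were. These were the MLL complex cofactor Psip1 (-0.82 ± 0.11, adjusted p = 0.003) and Ctcf (-0.20 ± 0.06, adjusted p = 0.0461). None of the 20 was called in KO against WT p210 cells, where 4.44% of all genes were. With p210, 4 of the 20 rose and 5 fell in WT, where 21.9% of all genes rose and 17.6% fell, and 5 rose and 3 fell in KO, where 19.2% rose and 18.0% fell. The medians of the 20 were -0.01 and 0.04, and these shares are near those of all genes. Of 13 genes described downstream of HOXA9 or MEIS1, all tested, 2 rose and 5 fell in WT p210, and 1 rose and 4 fell in KO p210, against the same shares of all genes. Lmo2, a haematopoietic LIM factor gene, fell in WT (-1.77 ± 0.20, adjusted p = 8.05e-05) and KO (-1.51 ± 0.19, adjusted p = 0.000174). Flt3, a cytokine receptor gene, fell in WT (-2.50 ± 0.63, edgeR adjusted p = 0.0084) and in KO (-4.09 ± 0.63, adjusted p = 0.000555). Bcl2, which encodes a survival protein, rose in both. Of the 13, 1 (Hmgb3) was lower in KO untransformed cells, where 6.5% of all genes were. None of the 13 was called in KO against WT p210 cells, where 4.44% of all genes were.

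The pattern of Hoxa9 over the 14 libraries was most like that of Fgf3, with a root mean square distance of 1.02 between centred log2 CPM values, then Hoxa7 (1.09) and Ackr1 (1.36), among 9813 genes compared. The nearest to Hoxa7 were Robo3 (0.84) and Mmrn1 (0.91). The other members stood at 1.5 (Hoxa5) to 3.89 (Pbx2) from Hoxa9. The TPM of Hoxa9 was 0.199 to 0.391 times that of Hoxa7 in 7 of the 9 libraries where it was computed, 1.33 in WT untransformed replicate 1 and 4.23 in WT p210 replicate 1, which share a code and letter.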

How the data were processed

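Libraries (SENSE mRNA-Seq kit, 50 bp single-end) were made from 14 cultures, per the labels' protocols. The submitters' processing notes name Trimmomatic and STAR, with versions not given in the sources used here. Per the file headers, the authors counted reads per gene with featureCounts 1.5.1, reverse-stranded, on GENCODE M13 (GRCm38), and these whole counts are as deposited. A second deposited column holds TPM, whose values differ from recomputed values by at most 0.049. TPM was used for levels between genes and in no test. Symbols were given to 50376 of 50686 genes.

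Counts were tested with edgeR 4.0.16 (R 4.3.3), quasi-likelihood F-test, robust dispersion, TMM scaling, filterByExpr (minimum count 10, minimum total 15), 14512 genes, Benjamini-Hochberg over all of them, threshold 0.05. A single fit took all 14 libraries with group as its one term, so the spread is shared over groups. The edgeR test reports no SE. The SE given beside an edgeR log2 fold change is its absolute value divided by the square root of F, and is approximate, most so for groups with almost no counts. Alternatives used DESeq2 1.42.0, limma 3.58.1 (voom), other scalings, no filter, fewer libraries, blocks and 1 library left out. CPM uses TMM-scaled sizes, and log2 CPM for likeness a prior count of 2. No pair of replicates agreed within sampling noise (chi-square per degree of freedom at least 14.55). The fit was also run on simulated counts, with moderate changes in genes of ample counts. That setting does not cover falls to almost no counts, such as those of the Hoxa genes, and its outcome is not given here.

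The genes and lists were chosen with earlier results of these data known. The rule for named genes took all 9 genes, Cdk6 and up to 5 called genes per list and comparison with the smallest adjusted p. It also took the 3 genes nearest to Hoxa9 and to Hoxa7. Some genes these rules cover are not reported here; they stayed in the fit and were left out of the list counts, sums and plots. Hoxc6, Skap2, Snx10 and Hibadh were named after their values were seen.

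Descriptions carry 2 codes, 1 on replicates 1 and 2, the other on replicates 3 and 4. A code with its letter was read as the line within a genotype. Deviations from the group means correlated between WT libraries of the same line and number (r = 0.163, 0.114 and 0.123), and the numbers were taken to pair the WT states. WT and KO untransformed replicates 3, which differ in genotype and letter, reached r = 0.119. Such values therefore do not settle the pairing, which is an assumption. KO lines (r = 0.062, 0.08 and 0.021) did not reach 0.1.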

Additional observations from a re-analysis of the deposited data

Results flagged for a closer look

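Hoxa3 in WT untransformed replicate 4 stood at 2.26 CPM, farther from the other 3 libraries of its group (1.44 to 1.47 CPM) than Dixon's 95% limit for 4 samples. Hoxb4 in KO p210 replicate 1 stood at 0.575 CPM, apart from the 0 to 0.0390 CPM of the other 3 libraries in the same way. These were 2 of 16 groups checked, and chance flags about 1 in 20 groups.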

How the results depend on the processing

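Over 26 settings, 1028 fold changes of the 9 genes kept their direction and side of the threshold, 41 were no longer past it, 38 were newly past it and 30 changed sign. All 36 group levels moved by less than 1 SD under RLE scaling. For KO against WT untransformed cells (1 gene called), DESeq2 called 2, a fit to the compared groups alone 4, either code alone 0, and leaving out 1 library gave 0 to 2. For KO against WT p210 cells (4 called), limma-voom gave 0, the replicate block 1, and leaving out 1 library 2 to 6. Without WT untransformed replicate 3 and KO p210 replicate 2 together, a choice made after seeing the data, it was 1. The compared groups alone gave 0, but there the 5 Hoxa genes, which include the 4 called, did not pass the filter. Only Hoxb4, Meis1, Pbx2 and Pbx3 were tested in that setting, so its 0 is no retest of the 4 calls. For p210 in WT (0 called), RLE scaling, library size scaling, DESeq2 and the code as a term gave 1 each, the first code alone 2, the second code alone 4, limma-voom 5, and leaving out 1 library 0 to 2. For p210 in KO (7 called), the line block gave 4, the second code alone 3, and leaving out 1 library 6 to 7. For the interaction (0 called), DESeq2 gave 4 and leaving out 1 library 0 to 4. The replicate block gave 1, 1, 0, 6 and 0 calls in the 5 comparisons, and the line block 0 calls in WT and for the interaction. Pairing therefore changed no call in WT, the comparison that the numbers were assumed to pair.

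With the second code alone the sign changed for KO against WT p210 cells in Hoxa9 (3.87) and Meis1 (1.28). It also changed for the interaction in Hoxa3 (0.48), Hoxa7 (0.19), Hoxa9 (4.48), Hoxa10 (0.24), Meis1 (2.61) and Pbx2 (0.15), and for p210 in WT in Pbx2 (-0.07). In that setting WT p210 and KO untransformed are each replicate 3 alone. Hoxa9 with p210 in WT ranged from -2.99 to 0.48 when 1 library was left out, with 0.42, 0.35 and 0.48 without WT untransformed replicate 1, WT p210 replicate 2 and WT p210 replicate 3. Pbx3 with p210 in WT was 0.08 in the first code alone and -0.37 to 0.03 with 1 library left out, above 0 only without WT p210 replicate 1. Pbx2 with p210 was -0.05 in both genotypes under library size scaling and -0.00 in KO in the first code alone. The Pbx2 interaction, -0.00 in the main setting, was 0.00 under RLE scaling, library size scaling and DESeq2. It ranged from -0.04 to 0.05 with 1 library left out and was 0.03 without WT untransformed replicate 3 and KO p210 replicate 2 together. The cause of these changes was not tested. With library size scaling the all-gene median was -0.118 in KO against WT untransformed cells and in p210 against untransformed KO cells. Depth limits the Hoxa folds against KO p210 cells, which rest on 3 to 5 counts for Hoxa5, Hoxa7 and Hoxa9 and are lower bounds against 0 counts for Hoxa3 and Hoxa10.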
